A study of Homo sapiens with 8 samples.

Results

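Cytokines and chemokines are secreted or membrane-bound signals between blood cells, and their receptors sit on the membrane of the responding cell. Ligands of this kind are made by monocytes on stimulation, while receptors such as CSF1R and CSF3R mark the path from a myeloid progenitor to a monocyte or a granulocyte. PML::RARA, the fusion protein of acute promyelocytic leukaemia, joins the PML protein to the retinoic acid receptor alpha, a nuclear receptor that binds DNA at repeats of the half-site AGGTCA or AGTTCA.

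The anti-PML::RARA Cut&Run peak list of induced U937-PR9 cells held 42 peaks labelled with a cytokine, chemokine or receptor gene, among 7169 peaks with a gene label and 15412 peaks in all. Members were chosen by symbol: IL, CCL, CCR or CSF followed by a digit, symbols that start with TNFRSF, TNFSF, CXCL or CXCR, and TNF, LTA and LTB. The 42 peaks carried 35 gene symbols, of which 13 were ligands with 16 peaks and 20 were receptors with 24 peaks. The remaining 2 were IL4I1, an amino-acid oxidase that shares only its name with interleukins, and IL10RB-DT, a non-coding transcript that runs away from the IL10RB promoter. All other labelled peaks, 7127 with 6511 symbols, served as the comparison.

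U937-PR9 is a line of human monocytic cells whose PML::RARA transgene is driven by a zinc-inducible promoter. Cells received 100 µM ZnSO4 (induced) or water (uninduced) for 5 h, and nuclei were profiled by Cut&Run, which cuts and releases the DNA around an antibody-bound protein, with an antibody to PML-RARA or to RARA. The study held 2 replicates of each of these 4 groups, 8 libraries in all, and the list analysed here was taken as the 1 made from the induced anti-PML-RARA replicates, which was inferred from its number of peaks, its name and the study's description, since the list itself names no group. Uninduced peaks were not analysed here, so binding of PML::RARA, an effect of zinc and signal that the antibody would give in uninduced cells cannot be told apart. The list gave 1 value per peak with no value per replicate and no depth, so every comparison here is a description of 1 list, without a test. Intervals are 95% intervals that cover the counting of peaks or genes only.

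Fewer cytokine, chemokine and receptor genes than other genes carried a promoter label. Of 187 protein-coding genes with such a symbol in the annotation, 34 had a labelled peak, a share of 18.2% (13.3 to 24.3%, Wilson), against 30.0% of all 20103 protein-coding genes. Ligands stood lower than receptors. The share was 12.6% (7.53 to 20.4%) for 103 ligand genes and 24.4% (16.4 to 34.7%) for 82 receptor genes, and these intervals overlapped.

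Interleukins as ligands had few labels, with 2 of 42 genes labelled (4.76%, 1.32 to 15.8%). An apex lay within 1 kb of a start site in 6 of the 42 (14.3%, 6.72 to 27.8%), of which IL6, IL10, IL23A and IL5 had no label of their own. Interleukin receptors had 9 of 41 labelled (22.0%, 12.0 to 36.7%). Both arms of the TNF superfamily lay near the share of all protein-coding genes, with 5 of 15 ligands (33.3%) and 6 of 21 receptors (28.6%). Among chemokines, which guide the migration of leukocytes, 4 of 29 CC ligands (13.8%) and 2 of 14 CXC ligands (14.3%) were labelled, with 2 of 10 CC receptors (20%) and 1 of 6 CXC receptors (16.7%). None of the 3 colony-stimulating factors CSF1, CSF2 and CSF3 was labelled, which allows a share of up to 56.2%, while CSF1R and CSF3R were labelled among 4 receptors of that name. The other 2, CSF2RA and CSF2RB, form the GM-CSF receptor. CSF2RA, IL3RA and IL9R lie in the pseudoautosomal regions, where the list held 0 of its 325 peaks of chromosome X, so these genes could not be judged.

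**Figure D1:**
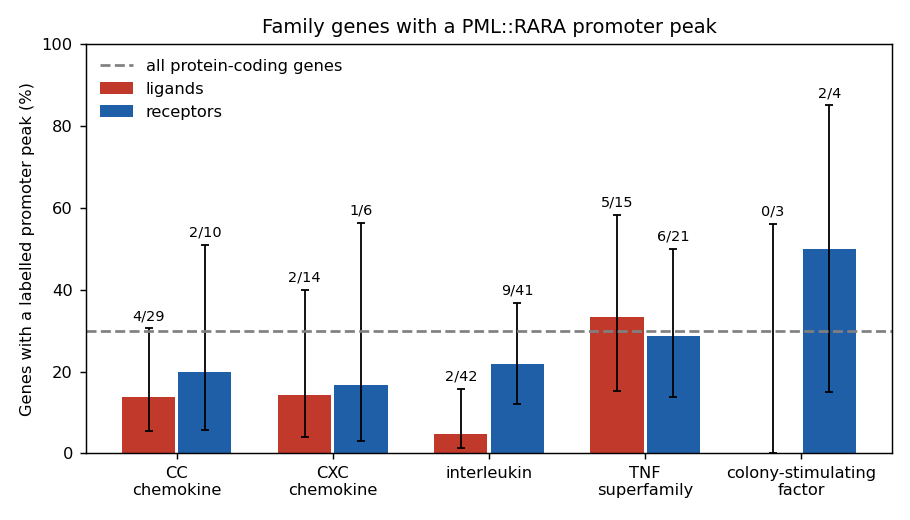
Share of the genes of each family with a labelled promoter peak, in percent, with Wilson 95% intervals as bars and the share of all protein-coding genes as the dashed line. By label, interleukin ligands sit lowest among families with any labelled gene at 4.76%, but by an apex within 1 kb of a start site (14.3%) they stand above CC ligands (10.3%), and by label the TNF superfamily lies near the 30.0% of all protein-coding genes.

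Ligands also stood below receptors by the position of peaks without regard to the label. An apex, the stretch of largest signal in a peak, lay within 1 kb of an annotated start site in 16.5% (10.6 to 24.9%) of ligand genes and 23.2% (15.4 to 33.4%) of receptor genes, with overlapping intervals, against 39.3% of all protein-coding genes. Any peak over the gene, from its start to its end, was found for 23 ligand genes (22.3%) and 37 receptor genes (45.1%), the receptors standing at the 45.1% of all protein-coding genes. These counts take no account of gene length. In all, 105 of the 187 genes were without any peak from 10 kb before to 10 kb after the gene, 67 of them ligands and 37 receptors. Such a peak was found for 35.0% of ligand genes, 54.9% of receptor genes and 53.3% of all protein-coding genes.

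Sequences under 5 of the peaks are shown here because they carry the contrast between the members: promoters of inducible ligands with low signal, an upstream CCL1 peak and the intron with the highest signal. They were read from GRCh37, the hg19 build, on the strand of the gene, as up to 300 bases around the apex cut back to bases that no annotated exon covers. Capitals mark matches, on either strand, to 1 of 7 motifs searched: the half-sites AGGTCA and AGTTCA of RARA and its partner RXR, GGAAGT of the myeloid factor PU.1, TGANTCA of AP-1, TATAAA of the TATA box, TTGCNNAA of C/EBP factors and the NF-kappa B consensus. Tumour necrosis factor, the founding cytokine of its family, had the stretch chr6:31543181-31543341 (plus strand), IL1B chr2:113594394-113594603 (minus), CXCL2 chr4:74964914-74965018 (minus), CCL1 upstream chr17:32692393-32692692 (minus) and TNFRSF1A intron 1 chr12:6446427-6446726 (minus).
TNF: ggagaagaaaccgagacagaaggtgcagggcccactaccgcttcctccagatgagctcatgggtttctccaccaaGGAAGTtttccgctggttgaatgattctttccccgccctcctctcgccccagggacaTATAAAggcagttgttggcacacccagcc
IL1B: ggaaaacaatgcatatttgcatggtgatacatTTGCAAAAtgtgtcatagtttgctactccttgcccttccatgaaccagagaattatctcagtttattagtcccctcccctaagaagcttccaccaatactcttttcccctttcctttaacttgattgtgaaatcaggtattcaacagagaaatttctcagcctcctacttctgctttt
CXCL2: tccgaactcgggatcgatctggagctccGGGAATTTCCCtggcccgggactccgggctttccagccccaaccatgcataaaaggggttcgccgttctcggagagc
CCL1 upstream: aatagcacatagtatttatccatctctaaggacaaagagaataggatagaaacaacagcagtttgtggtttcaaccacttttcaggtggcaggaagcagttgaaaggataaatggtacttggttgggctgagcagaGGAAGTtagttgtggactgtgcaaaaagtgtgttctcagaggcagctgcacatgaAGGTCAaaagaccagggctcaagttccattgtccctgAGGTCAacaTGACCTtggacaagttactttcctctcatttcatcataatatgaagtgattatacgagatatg
TNFRSF1A intron 1: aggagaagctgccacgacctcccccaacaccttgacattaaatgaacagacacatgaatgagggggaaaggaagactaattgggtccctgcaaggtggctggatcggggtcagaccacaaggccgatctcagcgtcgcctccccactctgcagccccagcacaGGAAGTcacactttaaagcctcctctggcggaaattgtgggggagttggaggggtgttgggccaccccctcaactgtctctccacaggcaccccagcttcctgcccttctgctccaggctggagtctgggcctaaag

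The TNF stretch held 1 GGAAGT and 1 TATAAA close to the start site. IL1B held 1 TTGCNNAA, and CXCL2 held 2 overlapping NF-kappa B matches on opposite strands of 1 palindrome. The upstream CCL1 stretch held 3 matches to AGGTCA. A pair of them faced each other with 3 bases between. This arrangement was found in 0 of the 7127 windows of the same length under other labelled peaks. It was chosen for the search after the stretch had been seen, and binding of RARA to it was not tested. The TNFRSF1A intron held 1 GGAAGT and no half-site of these letters.

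In peak height, the largest signal within a peak, member peaks as a whole stood level with other labelled peaks. Their median was 26 (19 to 31, range 16 to 51), and that of other labelled peaks was also 26. Above that median lay 20 of the 42 member peaks (47.6%), against 48.5% of other labelled peaks. Ligand peaks had a median height of 23 (17 to 32, range 16 to 38) and receptor peaks of 26.5 (19 to 33, range 17 to 51), a difference within these intervals.

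Ligand peaks had a smaller median width than receptor peaks, with overlapping intervals. The median width was 953 bp (682 to 1280) for member peaks and 1108 bp for other labelled peaks, and 16 of the 42 (38.1%, 25 to 53.2%) were wider than that, against 50.0% of the others. Ligand peaks had a median of 647 bp (393 to 1063) and 3 of 16 above the median of other labelled peaks (18.8%, 6.59 to 43.0%). Receptor peaks had a median of 1034 bp (774 to 1528) with 11 of 24 above it (45.8%, 27.9 to 64.9%). Within 10 classes of equal peak number by width, 38.1% of member peaks and 48.2% of other labelled peaks lay above the median of their class.

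**Figure D2:**
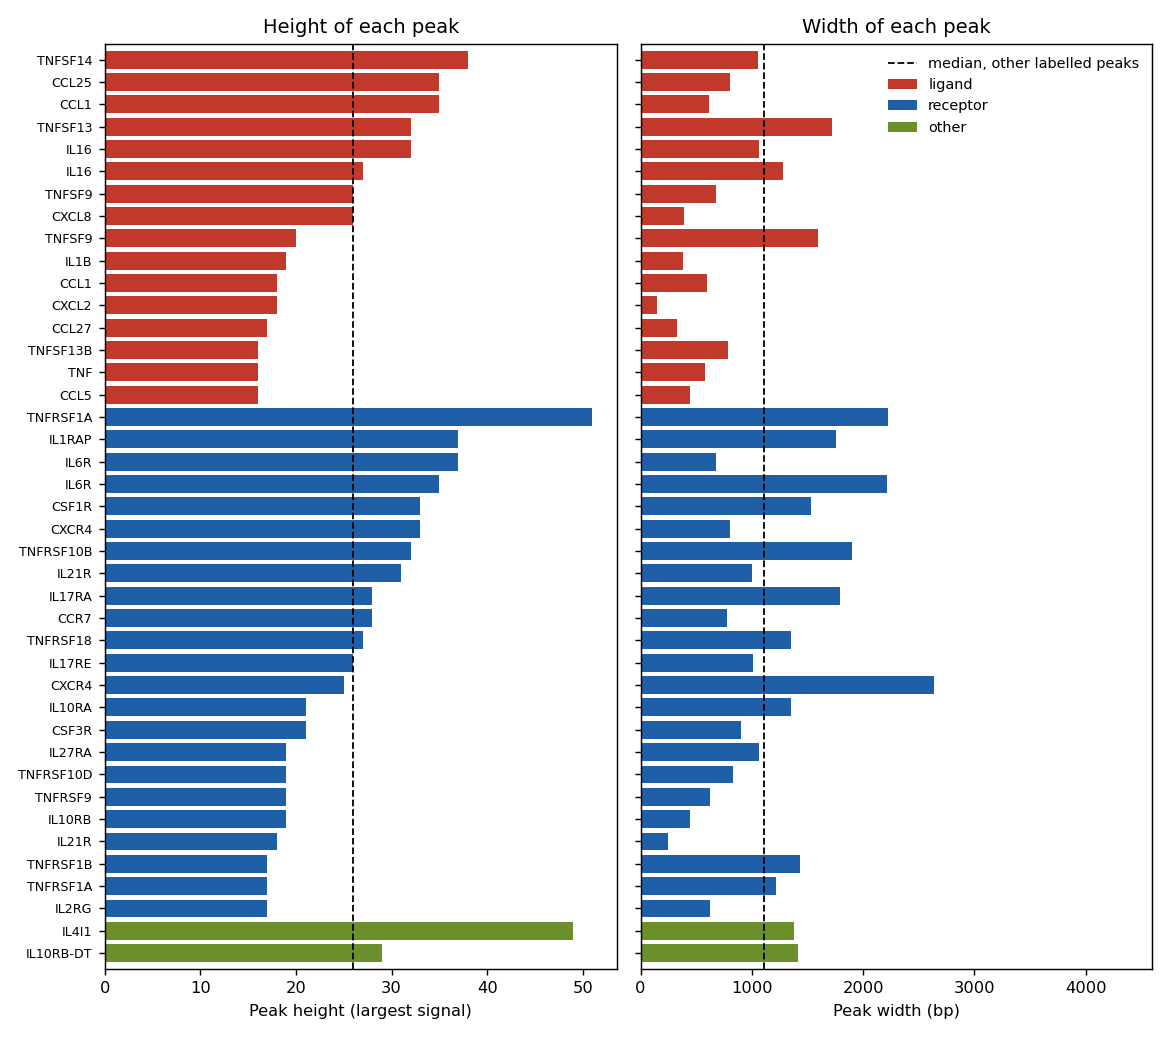
Height (largest signal, left) and width in bp (right) of 41 member peaks, 1 bar per peak, grouped as ligands, receptors and others, with the median of other labelled peaks as the dashed line. Ligand bars reach 38 in height and 1723 bp in width, and receptor bars reach 51 and 2640 bp.

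The 3 lowest member peaks, of equal height, all belonged to ligands. TNF had a height of 16 over 583 bp (chr6:31543144-31543726), its apex 11 bp before the first base of the gene, and only 0.196% of other labelled peaks were lower. CCL5, which draws T cells and monocytes, also had a height of 16, over 442 bp, with the apex 10 bp upstream. TNFSF13B, the B-cell survival factor BAFF, shared this height over 785 bp, with the apex 15 bp upstream of an annotated start. Each of the 3 had its apex within 15 bp of an annotated start site. For TNFSF13B this was not the canonical start, which lay 494 bp upstream of the apex.

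IL1B, the secreted interleukin 1 beta, had a height of 19 over 381 bp with the apex 61 bp upstream. CXCL2, a neutrophil chemokine, had the narrowest member peak at 149 bp, with a height of 18 and the apex 43 bp into its first exon, and 0.337% of other labelled peaks were narrower. CXCL8, the neutrophil chemokine interleukin 8, was higher at 26 over 393 bp (chr4:74606126-74606518), with the apex 105 bp into its first exon. The IL1B locus held higher signal away from the promoter, with an unlabelled peak of height 28 over intron 5 and another of height 38 at chr2:113579307-113579723, within 10 kb of the end of the gene.

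CCL1, a chemokine for monocytes and T cells, had a peak at its first exon and a peak upstream. The exonic peak had a height of 18 over 595 bp, with the apex 132 bp past the start site. The upstream peak, from which the half-site sequence above was taken, had a height of 35 over 614 bp (chr17:32692182-32692795), with the apex 2291 bp upstream. CCL25, a chemokine of the thymus and gut, had a height of 35 over 808 bp with the apex 1595 bp upstream, and CCL27, a skin chemokine, a height of 17 over 324 bp.

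The other labelled peaks of TNF superfamily ligands ranged from 16, that of TNFSF13B, to 38. TNFSF14, known as LIGHT, had the highest labelled ligand peak, 38 over 1059 bp (chr19:6669525-6670583), with the apex 72 bp upstream, above 81.1% of other labelled peaks. TNFSF13, known as APRIL, had 32 over 1723 bp, the widest labelled ligand peak. TNFSF9, the ligand of the co-stimulatory receptor TNFRSF9, had 2 labelled peaks. They were 20 over 1598 bp at its start and 26 over 680 bp with the apex 1985 bp upstream. Unlabelled peaks were higher, 34 in intron 2 and 36 with the apex 5290 bp past the start, outside the gene. IL16, a chemoattractant for CD4+ cells, had labelled peaks of 27 over 1280 bp and 32 over 1063 bp. Both lay in intron 12 of the canonical transcript, the latter with the apex 40 bp before the first base of a shorter transcript.

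The highest member peak lay in intron 1 of TNFRSF1A, the main receptor for TNF (ENSG00000067182). It had a height of 51 over 2228 bp (chr12:6444791-6447018), above 95.2% of other labelled peaks in height and 92.4% in width, with the apex 4665 bp downstream of the canonical start site. The peak at the TNFRSF1A start itself had a height of 17 over 1213 bp, with the apex 6 bp upstream. Signal within the gene was thus 3 times as high away from its promoter as on it. TNFRSF1B, the second TNF receptor, also had its highest signal away from its start, but outside the gene. Its labelled start peak had a height of 17 over 1430 bp. An unlabelled peak with the apex 4973 bp upstream (chr1:12221164-12222664) had a height of 54, and the highest peak over the gene had 29.

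The other labelled peaks of TNF superfamily receptors ranged from 19 to 32 in height. TNFRSF10B, a receptor for the death ligand TRAIL, had 32 over 1903 bp, with the apex 1091 bp past a start site. The end of this apex was missing from the list, so the distance was measured from its first base. The decoy receptor TNFRSF10D had 19 over 832 bp. TNFRSF18, known as GITR, had 27 over 1352 bp with the apex 2419 bp upstream, and TNFRSF9 had 19 over 627 bp.

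Interleukin receptor peaks ranged from 17 to 37 in height. IL6R, the receptor chain for interleukin 6, had a start-site peak of 35 over 2213 bp (chr1:154377038-154379250) and a second of 37 over 682 bp with the apex 1578 bp upstream. IL1RAP, the shared chain of the interleukin 1 receptors, had 37 over 1756 bp (chr3:190231195-190232950), with the apex 295 bp upstream. Among the chains for interleukin 17, IL17RA had 28 over 1793 bp at its start and IL17RE had 26 over 1009 bp. A higher peak, of 47, lay unlabelled over intron 3 of IL17RA (chr22:17579186-17580000).

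For the interleukin 10 receptor, the peaks labelled IL10RA and IL10RB lay below 26, the median height of other labelled peaks. IL10RA had 21 over 1348 bp with the apex 3 bp upstream of a start site. The label IL10RB went to a peak of 19 over 448 bp whose apex lay 18553 bp upstream of any annotated IL10RB start and 901 bp upstream of the IFNAR2-IL10RB readthrough start. The peak nearest to the IL10RB start, 29 over 1419 bp with the apex 497 bp before it, carried the label IL10RB-DT. It lay above the median of 26.

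IL21R had 31 over 1001 bp at its start and 18 over 248 bp in intron 1 of the canonical transcript. IL27RA had 19 over 1060 bp, and IL2RG, the common gamma chain of several lymphoid cytokine receptors, had 17 over 625 bp.

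The receptors for the myeloid growth factors differed in where their peak lay. CSF3R, the G-CSF receptor of granulocytes, had 21 over 905 bp (chr1:36948070-36948974) with the apex 36 bp upstream of a start site, and an unlabelled peak of 27 with the apex 3512 bp upstream. The labelled peak of CSF1R, the M-CSF receptor of monocytes, lay in intron 1, with a height of 33 over 1528 bp (chr5:149461231-149462758) and the apex 3951 bp past the canonical start. Further unlabelled peaks of 20, 17 and 18 lay over introns 14, 10 and 9 of CSF1R. No peak of the list had its apex within 1 kb of the canonical CSF1R start.

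CXCR4, the receptor that holds blood progenitors in the marrow, had the widest member peak. It spanned 2640 bp (chr2:136873711-136876350) with a height of 25, and was wider than 95.9% of other labelled peaks. A second CXCR4 peak of 33 over 802 bp followed upstream. CCR7, which guides cells to lymph nodes, had a labelled peak of 28 over 774 bp with the apex 75 bp upstream. An unlabelled peak of 32 over 978 bp lay in intron 1 of its canonical transcript, with the apex 30 bp past another annotated start. Outside the ligands and receptors, IL4I1 had 49 over 1383 bp (chr19:50399951-50401333), the second highest member peak, with the apex 1049 bp upstream of its nearest start site.

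**Figure D3:**
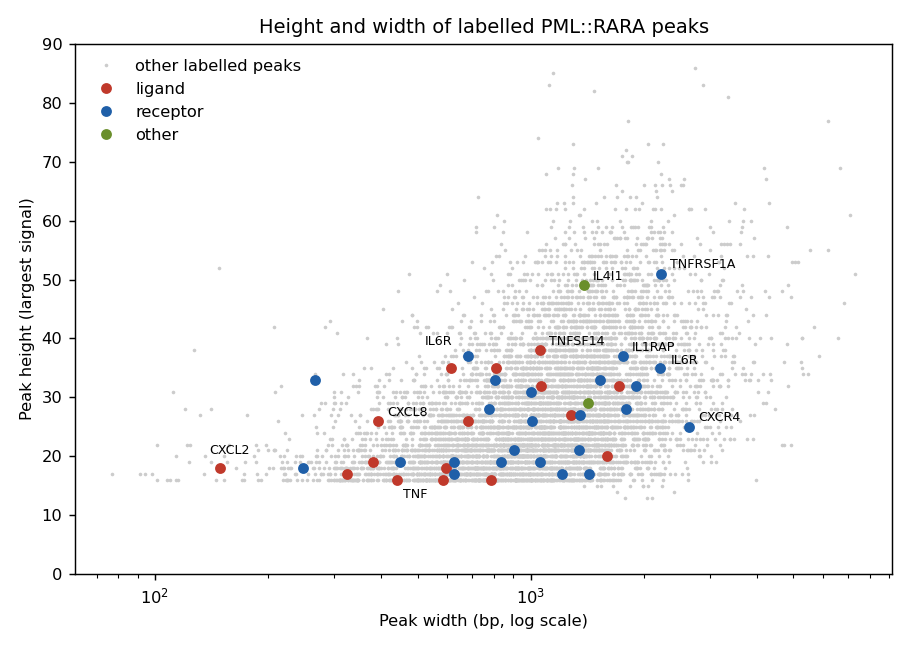
Height (largest signal, linear axis) against width in bp (log axis) for all labelled peaks, with other labelled peaks as grey points and ligand, receptor and other member peaks in colour. Members lie within the spread of other labelled peaks, and the narrowest is CXCL2 at 149 bp.

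Receptor apexes lay farther from start sites than those of other labelled peaks, and ligand apexes by their median nearer. The median distance to a start site of the labelled gene was 456.5 bp for receptor peaks, 66.5 bp for ligand peaks, 213.5 bp for all members and 102 bp for other labelled peaks. Of all members, 30 of 42 apexes (71.4%) lay within 1 kb against 92.5%. Over 3 kb away lay 3 of 42 (7.14%), those of the receptors IL10RB, TNFRSF1A and CSF1R, against 1.05%. Within 1 kb lay 75% of ligand and 70.8% of receptor apexes. Of the 42 apexes, 27 were upstream of the nearest start site of their gene. The share of upstream apexes among other labelled peaks was not computed, so this count is not read as a trait of the members. More than 1 labelled peak was found for 7 of 35 genes (20.0%), CCL1, CXCR4, IL16, IL21R, IL6R, TNFRSF1A and TNFSF9, against 8.36% of other labelled genes.

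Height went with this distance among members. The 30 peaks within 1 kb of a start site had a median height of 20.5 (range 16 to 38), and the 12 farther away had a median of 33 (range 19 to 51). A height of 26 or more was reached by 12 of the 30 and by 11 of the 12. The 12 include TNFRSF10B, whose distance of 1091 bp was measured from the first base of an apex without a listed end. Among other labelled peaks the median was 26 at both distances, and 52.2% of the near and 53.1% of the far peaks reached 26. The order held in each class, with medians of 18.5 near and 31 far for ligands and 21 near and 33 far for receptors.

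Most member peaks lay in DNA poor in CpG. The CpG ratio, the observed number of CpG over that which the base composition gives, is high in CpG islands, which hold most promoters active across tissues. In 300-base windows at the apex it reached 0.6 or more in 11 of 42 member peaks (26.2%), against 79.5% of other labelled peaks, with medians of 0.361 and 0.813. It did so in 2 of 16 ligand peaks (12.5%) and 9 of 24 receptor peaks (37.5%). Within 1 kb of a start site the share was 36.7% of 30 member peaks against 83.3% of other labelled peaks, and farther away it was 0 of 12 against 35.7%.

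Base composition also divided the shares of labelled genes. Around the canonical start site, 49 of 184 cytokine, chemokine and receptor genes with a ratio (26.6%) reached 0.6, against 69.5% of other protein-coding genes. At CpG-rich starts 26.5% (16.2 to 40.3%) of these genes and 39.5% of other genes had a labelled peak. At CpG-poor starts the order was the opposite, 15.6% (10.4 to 22.6%) of 135 genes against 9.97% of 5980. Receptors with a CpG-rich start were labelled in 11 of 30 cases (36.7%), and ligands with such a start in 2 of 19 (10.5%). At CpG-poor starts, where most of these genes lie, the shares were 9 of 52 receptors (17.3%) and 11 of 81 ligands (13.6%).

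The median width of member peaks was larger at CpG-rich DNA, although the narrowest, CXCL2, was CpG-rich and the second widest, in TNFRSF1A, CpG-poor. It was 1430 bp for the 11 CpG-rich and 808 bp for the 31 CpG-poor peaks, against 1138 and 953 bp for other labelled peaks. Median heights ran the other way among members, 21 and 27, and were 26 in both classes of other labelled peaks. Whether CpG content has a part in the narrow ligand peaks was not tested.

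**Figure D4:**
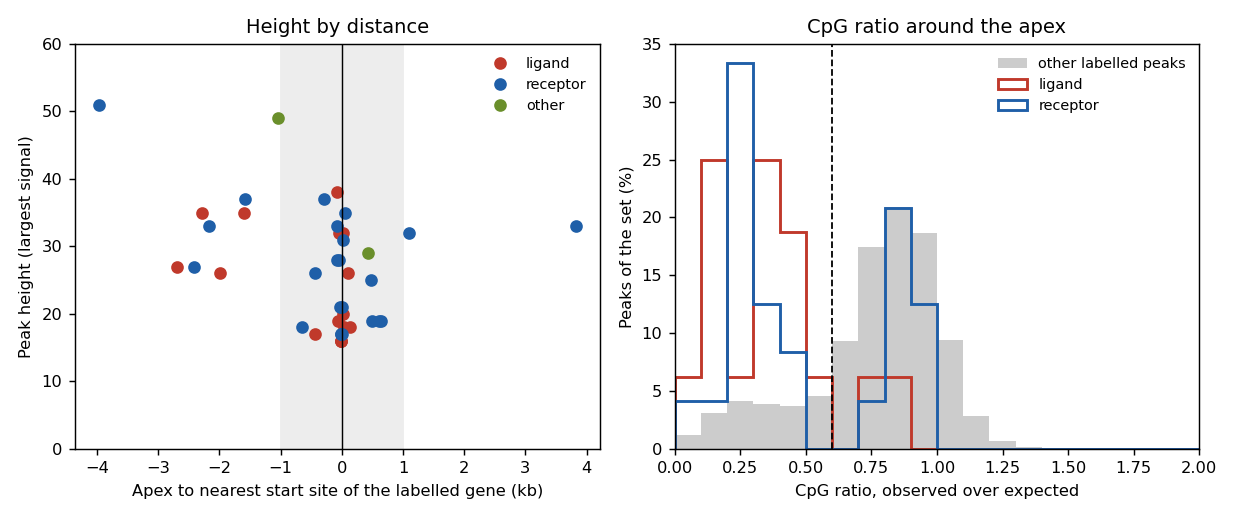
Left, height (largest signal) of member peaks against the distance in kb from the apex to the nearest start site of the labelled gene (negative upstream, grey band within 1 kb), without the IL10RB peak 18553 bp upstream and with the TNFRSF1A intron peak 3969 bp upstream of the start of a shorter transcript. Right, percent of ligand, receptor and other labelled peaks by CpG ratio at the apex, where 12.5%, 37.5% and 79.5% reach the dashed line at 0.6.

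The letters TATAAA were more frequent under members than under the other labelled peaks. They were counted on either strand and anywhere in the window, so a match need not be the TATA box of the gene. The IL10RB match, for example, lay under an apex 18553 bp upstream of any annotated IL10RB start. TATAAA was found under 7 of 42 member peaks (16.7%, 8.32 to 30.6%) and 3.92% of other labelled peaks, among the members those of CSF1R, CXCL8, IL10RB, IL2RG, TNF and TNFSF9. The AP-1 motif TGANTCA was found under 6 members (14.3%, 6.72 to 27.8%) and 6.08% of the others, and TTGCNNAA under 6 (14.3%) and 7.84%. In 200-base windows TTGCNNAA was found under 4.76% of members and 5.56% of the others, the opposite order. A match is a run of letters and not a bound site, and the part that the low CpG content of member windows has in these counts was not tested.

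The letters AGGTCA and AGTTCA were searched as half-sites of RARA but are not particular to that receptor. They had somewhat higher shares under members than under the other labelled peaks, whose shares lay within the members' intervals. AGGTCA was found under 7 members (16.7%, 8.32 to 30.6%), among them CCL1, CCR7, CXCL8, CXCR4, IL17RE and TNFRSF10B, against 12.99% of other labelled peaks. AGTTCA was found under 5 (11.9%, 5.19 to 25%) against 8.18%. GGAAGT was searched for PU.1 but is not particular to that factor. It was the most frequent motif, under 15 members (35.7%, 23.0 to 50.8%) and 31.7% of other labelled peaks. The NF-kappa B consensus was found under 7 members (16.7%) and 13.1% of the others, with 4 of 16 ligand peaks (25%) and 2 of 24 receptor peaks (8.33%). In 200-base windows this order was the opposite, 1 of 16 ligand peaks (6.25%) and 2 of 24 receptor peaks (8.33%).

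Some genes of these families lacked a label although an apex lay within 1 kb of an annotated start. There were 8 such genes, CXCL16, CXCR3, IL10, IL1R1, IL23A, IL5, IL6 and TNFRSF14. IL6, a cytokine of the acute phase response, had a peak of 22 over 719 bp (chr7:22766442-22767160), with the apex 85 bp past a start site, and IL10, an anti-inflammatory cytokine, had 20 over 283 bp with the apex 99 bp past its start. CXCR3, a receptor for interferon-induced chemokines, had 36 over 928 bp, and TNFRSF14, a receptor of TNFSF14, had 21 over 2432 bp.

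Peaks at the remaining 4 of these genes lay at alternative or neighbouring starts. The IL23A peak, 39 over 792 bp, was labelled PAN2, and the IL5 peak, 22 over 1162 bp, was labelled RAD50, both the names of neighbouring genes. CXCL16 had 22 over 387 bp in intron 3 of the canonical transcript, and IL1R1 had 24 over 1046 bp with the apex 85 bp upstream of the start of a longer transcript.

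A list of 48 cytokine and receptor genes of myeloid cells was chosen with earlier results of these data known. In it 17 genes were labelled (35.4%), against 18.2% of the 187 family genes and 30.0% of all protein-coding genes. Because of that choice, the share does not stand for myeloid genes in general. Of the other 31, 15 had a peak within 10 kb. These were IL6, IL10, IL1R1 and CXCL16, given above, and CCL2, CCR2, CSF2, IL1A, IL1R2, IL1RN, IL32, IL4R, LTA, LTB and TNFSF10. CCL2, the monocyte chemoattractant MCP-1, had upstream peaks of 35 and 28, with apexes 3087 and 8586 bp from its nearest start. IL4R had peaks of 29 and 33 in intron 1, and CCR2, the receptor of CCL2, had 33 with the apex past its end. LTA and LTB, the lymphotoxins beside TNF, had no peak of their own, and the highest peak within 10 kb of LTB, 53 over 2048 bp (chr6:31553273-31555320), was labelled LST1.

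Of all protein-coding genes, 53.3% had a peak within 10 kb. No peak was listed within 10 kb of 16 of the 48 genes: CCL3, CCL4, CCR1, CSF1, CSF2RA, CSF2RB, CSF3, CXCL1, CXCL10, CXCL12, CXCL3, CXCR1, CXCR2, IL18, IL3RA and IL6ST. CSF2RA and IL3RA, as pseudoautosomal genes, could not be judged. For the others, absence from the list says that no reproducible peak was called, at a depth that is unknown.

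Related cytokine genes outside these symbols, such as blood growth factors, atypical chemokine receptors and TNF relatives with other names, were labelled in 6 of 45 cases (13.3%, 6.26 to 26.2%), against 30.0% of all protein-coding genes. An apex within 1 kb of a start site was found for 13 of the 45 (28.9%), against 39.3%. By labelled peak, the highest of the 6 were RELT, a TNF receptor relative, at 49, and OSM, the myeloid cytokine oncostatin M, at 39. NGFR and TGFB1 followed at 25 each, and FLT3LG, the ligand of the FLT3 receptor, at 18. Unlabelled peaks with the apex within 1 kb of a start were higher than 25 at ACKR3 (36), CCRL2 (29), MIF (27) and CD70 (26).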

How the data were processed

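One peak list was analysed, from anti-PML-RARA Cut&Run of induced U937-PR9 cells. The authors used Trimmomatic for trimming, Bowtie2 for alignment to hg19 and Samtools for removal of duplicates. They called peaks with SEACR against a paired control and kept peaks reproducible between the 2 replicates at an IDR under 0.05. The authors deposited for each peak a total signal and a score, read here as the largest signal (peak height), since the total lay below height times width in all 15412 peaks. Which replicates the values come from, and their normalization, are not given in the sources used here. The deposited gene symbols mark peaks whose apex overlapped a promoter of the UCSC known genes. A label thus depends on that promoter window, and the IDR filter removes peaks seen in 1 replicate only.

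Start sites came from GENCODE release 44 mapped to GRCh37. All 35 member symbols and 6381 of 6546 label symbols matched. Medians have binomial order-statistic intervals and shares Wilson 95% intervals, computed with Python 3.11.15, pandas 2.3.3, scipy 1.17.1 and pysam 0.24.0. Depth is unknown. The summary statistics were tested on simulated data. Members, gene lists, motifs and the genes named were chosen with earlier results of these data known. Named were the 10 highest and 10 widest, the 3 lowest, genes with several labelled peaks, unlabelled genes with an apex within 1 kb of a start, labels over 3 kb away and 48 myeloid genes. The others are given by name, and 1 member gene and 1 sequence are not reported here.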

Additional observations from a re-analysis of the deposited data

How the results depend on the processing

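Of 83 alternatives to 20 results, 73 left them the same and 10 moved them. Medians and shares were judged by whether they stayed within the interval of the main result. The numbers of member peaks and member genes have no interval and were judged by a fixed fold change. Restricting the list to peaks at or above its median height left 24 member peaks and 21 member genes. Labelled shares were then 6.80% for ligands and 14.6% for receptors. The share of all protein-coding genes at this cut is not given here, nor that of other labelled peaks kept. These shares thus have no matching background and are not to be set against that of the uncut list. Counting any peak over the gene or within 10 kb gave 35.0% of ligand and 54.9% of receptor genes, against 53.3% of all protein-coding genes. Receptors stayed above ligands under both. Mean signal per base, another quantity than height, had medians of 9.12 for members, 8.73 for ligand peaks and 8.82 for receptor peaks. The share of members with TTGCNNAA was 4.76% in 200-base windows, below the 5.56% of other labelled peaks, an order opposite to that in 300-base windows. The cause was not tested. The 200-base windows, the CpG measure with its limit of 0.6 and the shares without pseudoautosomal genes were chosen after seeing the data. No paired analysis was possible because each peak had a single value that named no replicate, so leaving 1 out was not possible either.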
